A study of Mus musculus and Homo sapiens with 20 samples.

Results

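The genes of 10 transcription factors of blood stem cells and myeloid cells were followed through every Polycomb peak list of the series: Runx1, Erg, Fli1, Mecom, Hlf, Spi1, Cebpa, Cebpe, Gfi1 and Irf8. They were picked by name from the GENCODE annotation and are 10 of the 20807 autosomal protein-coding genes of the mouse (mm10). Their human orthologues are 10 of the 19111 such genes of hg38. The peaks came from CUT&Tag, which uses an antibody to bring a DNA-cutting transposase to a histone modification. H2AK119ub is ubiquitin on histone H2A, placed by Polycomb repressive complex 1 (PRC1), and H3K27me3 is trimethylation of histone H3 at lysine 27, placed by Polycomb repressive complex 2 (PRC2).

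The 20 libraries formed 10 groups of 2 replicates. Both marks were mapped in mouse embryonic stem (mES) cells, wild type (WT) or knockout for Tet2 (KO), and in haematopoietic stem and progenitor cells (HSPCs) of WT and Tet2 KO mice aged 6 to 8 weeks. Only H2AK119ub was mapped in human K562 cells, nucleofected with siControl or with siMBD6, the siRNA directed at MBD6. The HSPCs were bone marrow cells depleted of lineage-positive cells and enriched for c-Kit on magnetic beads, so they mix stem cells with progenitors of several lineages, myeloid ones included. The labels also describe a suspension culture of these cells without saying whether it preceded the libraries. The knockout was present in every cell of the animal or line, and neither the labels nor the methods say how many animals or clones stand behind a replicate. The p-values below therefore measure only the spread between these libraries, which may be technical.

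These factors act in sequence and in combination. Runx1, Erg, Fli1, Mecom and Hlf belong to the programme of the blood stem cell, whereas Spi1, Cebpa, Cebpe, Gfi1 and Irf8 steer progenitors into granulocytes, monocytes and dendritic cells. In embryonic stem cells, lineage regulators of this kind are classic Polycomb targets, held silent under both marks, and developmental genes are thought to lose Polycomb cover as their lineage forms.

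Polycomb complexes in mammals settle mainly on CpG-rich DNA, and the starts of these genes vary widely in CpG content. Runx1 and Erg are shown because their own starts differ in it, and Cebpa because the 2 kb around its start hold more CpGs than those of any other member. The sequence just upstream of each start is given 5′ to 3′, on the minus strand for Runx1 and Erg and the plus strand for Cebpa (RefSeq, GRCm38.p6), with every CpG (the letters CG, which read the same on both strands) in capitals.
Runx1 distal start, chr16:92826150-92826324: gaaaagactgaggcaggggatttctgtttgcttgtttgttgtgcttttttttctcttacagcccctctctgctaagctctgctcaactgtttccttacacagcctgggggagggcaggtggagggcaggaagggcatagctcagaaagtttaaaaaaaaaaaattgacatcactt
Runx1 proximal start, chr16:92697330-92697579: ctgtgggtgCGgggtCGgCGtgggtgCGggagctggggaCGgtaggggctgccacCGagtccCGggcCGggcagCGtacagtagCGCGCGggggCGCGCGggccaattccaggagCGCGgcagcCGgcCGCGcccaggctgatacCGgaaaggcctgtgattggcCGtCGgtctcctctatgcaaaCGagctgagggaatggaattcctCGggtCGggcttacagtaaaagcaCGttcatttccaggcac
Erg first start, chr16:95586594-95586843: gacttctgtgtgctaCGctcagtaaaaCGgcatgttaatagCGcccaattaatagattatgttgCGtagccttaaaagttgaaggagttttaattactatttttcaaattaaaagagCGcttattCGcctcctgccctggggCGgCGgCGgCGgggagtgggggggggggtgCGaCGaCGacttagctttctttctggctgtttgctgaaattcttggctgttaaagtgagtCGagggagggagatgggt
Erg second start, chr16:95530366-95530615: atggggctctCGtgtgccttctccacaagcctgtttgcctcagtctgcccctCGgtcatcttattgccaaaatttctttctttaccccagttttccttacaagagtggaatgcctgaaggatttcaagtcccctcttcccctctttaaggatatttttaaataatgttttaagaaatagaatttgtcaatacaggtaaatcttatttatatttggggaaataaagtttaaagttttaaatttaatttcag
Cebpa start, chr7:35119043-35119292: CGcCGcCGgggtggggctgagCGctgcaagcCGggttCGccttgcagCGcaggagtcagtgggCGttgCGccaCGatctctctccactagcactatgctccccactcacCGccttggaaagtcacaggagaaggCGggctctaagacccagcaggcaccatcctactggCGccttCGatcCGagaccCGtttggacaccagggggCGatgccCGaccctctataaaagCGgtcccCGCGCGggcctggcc
The distal Runx1 stretch held 0 CpGs in 175 bases and the proximal one 27 in 250. The first Erg stretch held 14 and the second 2, and the Cebpa stretch held 22. RefSeq promoters were matched for 7 of the 10 members.

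Each gene was measured in 2 ways in each library. Promoter coverage is the percentage of the 2 kb centred on the gene start that lay under a peak, and span coverage is the percentage of the whole annotated gene under a peak. A gene was called higher or lower when both libraries of one group lay above both of the other and the means were at least 10 percentage points apart. When a library was left out, the library remaining in its group needed only to lie above or below both of the other group. Separation is then easier for every gene, and the share of all genes so called is not given. The lists give positions without scores or read counts, so depth is unknown, and a wider peak cannot be told apart from a deeper library. Fewer cells carrying a mark and less of it per cell cannot be told apart either.

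The lists held 85121 to 167378 peaks and covered 132.1 to 259.9 Mb, and between 30.4% and 41.4% of the peaks in a list shared 1 width of 501 bp. The WT and KO HSPC lists differed on chromosome X, where H3K27me3 covered 1.05 and 1.07 Mb in WT and 24.3 and 21.7 Mb in KO. H2AK119ub covered 0.541 and 0.329 Mb of it in WT and 2.51 and 2.69 Mb in KO. The paper used male and female mice, and the sex of the animals behind each HSPC list was not known here. A difference in sex between WT and KO animals was not tested and cannot be told apart from genotype. Only autosomes were used for the background, and all members are autosomal. The pluripotency genes were a check of the H3K27me3 labels: of 8, 1 had an H3K27me3 promoter peak in both WT mES libraries and 6 did in both WT HSPC libraries, with median promoter coverage of 2.79% and 94.3%. Of 10 HSPC marker genes the counts were 8 and 4, with medians of 77.3% and 0%. For H2AK119ub the pluripotency counts were 7 and 4 (medians 44.85% and 30.1%). Those of the HSPC markers were 6 and 7 (56.2% and 48.4%), so these genes do not check the labels of that mark. Of the 5 K562 marker genes measured, 2 had an H2AK119ub promoter peak in both siControl libraries and 3 in both siMBD6 libraries.

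In mES cells of the WT line the promoters of 8 of the 10 genes (Spi1, Cebpa, Cebpe, Gfi1, Irf8, Fli1, Erg and Hlf) were wholly covered by H3K27me3 in both libraries. The same held for 17.3% of all genes. Only Runx1 and Mecom stood apart at their annotated starts, and H2AK119ub followed a similar pattern with 5 genes wholly covered (Cebpe, Gfi1, Irf8, Fli1 and Hlf) against 13.1% of all genes. Median promoter coverage by H3K27me3 was 100% over the members and 12.5% over all genes, and for H2AK119ub it was 89.5% and 41.0%. In WT HSPCs H3K27me3 wholly covered 4 member promoters (Cebpa, Gfi1, Irf8 and Erg), against 16.3% of all genes, and H2AK119ub 3 (Runx1, Cebpa and Gfi1), against 9.4%.

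**Figure D1:**
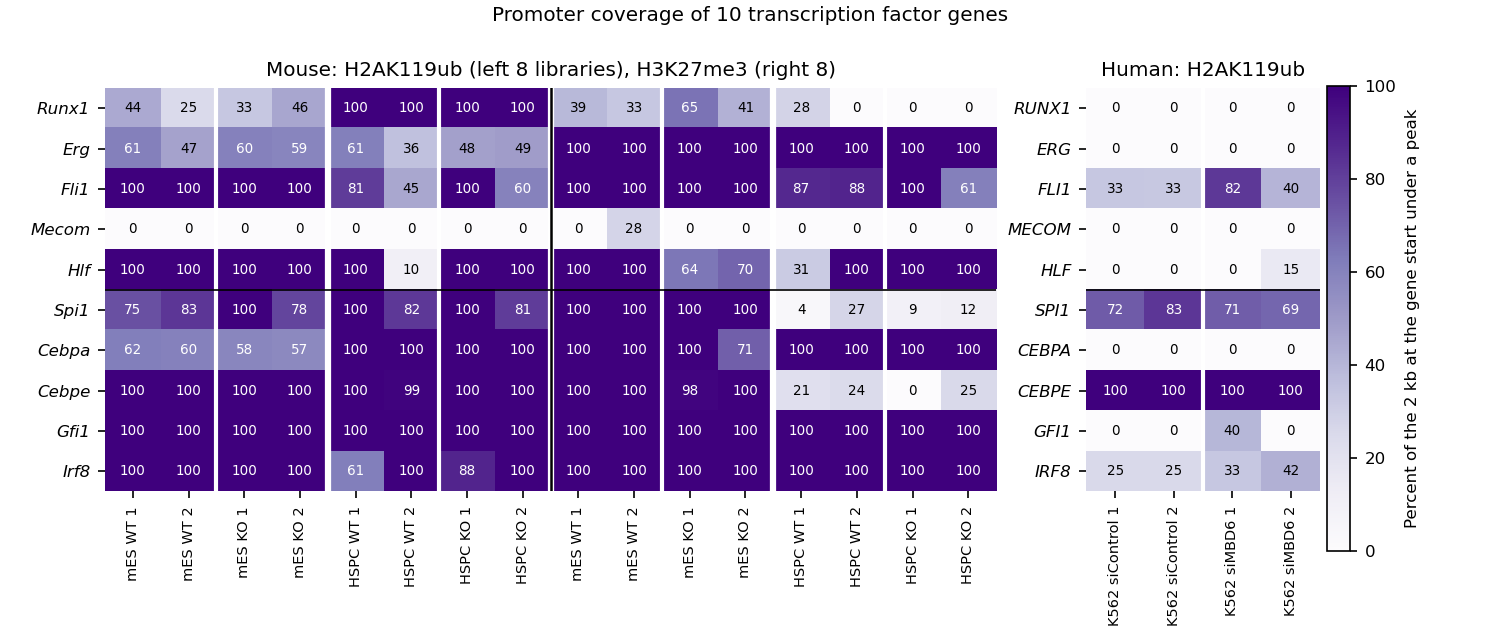
Promoter coverage of the 10 genes (rows) in each library (columns, mouse left and K562 right), with the shade and the number in a cell giving the percent of the 2 kb centred on the gene start under a peak. In WT mES cells 8 genes sit at 100% for H3K27me3 in both libraries. Of these, Spi1 and Cebpe lie far lower for that mark in HSPCs. Runx1, not among the 8, is lower in HSPCs for H3K27me3 and higher for H2AK119ub.

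Runx1 (chr16:92601466-92826149, minus strand) encodes the DNA-binding subunit of core-binding factor, needed for blood stem cells to arise. Its gene start is the distal one. There H3K27me3 covered 38.8% and 33.2% of the promoter in WT mES cells, 28.0% and 0% in WT HSPCs, 64.9% and 41.4% in KO mES cells and 0% in both KO HSPC libraries. H2AK119ub went the other way, covering 44.3% and 24.8% in the WT and 33.2% and 45.6% in the KO mES cells, and 100% in all 4 HSPC libraries. The groups of the 2 cell types did not overlap for either mark.

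The proximal Runx1 start, 128.8 kb inside the gene, behaved differently. H3K27me3 covered it wholly in all 4 mES libraries, and in HSPCs it covered 48.0% and 31.4% in the WT and 0% and 32.1% in the KO. H2AK119ub covered 90.6% and 100% in WT mES cells and 55.4% and 100% in WT HSPCs. The 2-kb window at the proximal start held 116 CpGs, more than 83.4% of gene starts, and the one at the distal start 39, more than 36.3%. Thus in mES cells the CpG-poor start was the less covered of these starts under both marks, and in HSPCs it was wholly covered by H2AK119ub.

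Along the whole of Runx1, H3K27me3 covered 37.8% and 44.3% of the span in WT mES cells against 2.79% and 2.04% in WT HSPCs. In KO the values were 39.8% and 27.4% against 0.446% and 1.32%. H2AK119ub over the span was 49.5% and 48.2% against 20.99% and 26.9% in WT, and 47.1% and 48.0% against 16.9% and 18.4% in KO. HSPCs therefore lay below mES cells for both marks over the span, with no overlap, although H2AK119ub at the distal promoter lay above. In all, 65.9 kb (29.3% of the gene) was under H3K27me3 in both WT mES libraries and in neither WT HSPC library.

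Erg (chr16:95359169-95586593, minus strand) encodes an ETS factor that sustains stem cells. Its first start was wholly covered by H3K27me3 in all 8 libraries of that mark. H2AK119ub covered less of it: 60.6% and 47.0% in the WT and 60.4% and 58.8% in the KO mES cells, 61.1% and 35.9% in the WT and 47.8% and 49.0% in the KO HSPCs. The second start, 56.2 kb inside the gene and with 12 CpGs in its 2-kb window (more than 12.5% of gene starts), had 0% of H2AK119ub in all 8 libraries of that mark. H3K27me3 there was 0% and 25.1% in WT mES cells, 9.85% and 0% in KO mES cells and 0% in the 4 HSPC libraries.

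Over the Erg span H3K27me3 covered 14.2% and 23.2% in WT mES cells and 6.46% and 5.13% in WT HSPCs, with 26.7% and 18.1% against 4.52% and 3.67% in KO. The peak at the first start remained wide in HSPCs (14.1 and 10.6 kb in the WT libraries, 12.1 and 13.8 kb in WT mES cells). The widths of that peak overlapped between the cell types. H2AK119ub covered 25.2% and 24.6% of the span in WT mES cells and 17.8% and 14.1% in WT HSPCs, and 29.4% and 27.2% against 15.5% and 15.0% in KO, with no overlap between the cell types.

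Fli1 (chr9:32422204-32542861, minus strand), an ETS factor closely related to Erg, was wholly covered at its start by both marks in all mES libraries. In HSPCs H3K27me3 covered 86.9% and 88.0% of the promoter in WT and 100% and 60.7% in KO. H2AK119ub covered 81.0% and 45.0% in the WT and 100% and 60.0% in the KO. The body of the gene differed far more: H3K27me3 covered 43.9% and 57.7% of the span in WT mES cells and 2.42% and 2.98% in WT HSPCs, and 50.98% and 35.1% against 4.37% and 3.41% in KO. H2AK119ub covered 27.1% and 23.7% against 14.3% and 13.9% in WT, and 31.9% and 28.0% against 9.53% and 11.3% in KO.

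Hlf (chr11:90336536-90390895, minus strand), a PAR bZIP factor of the stem cell, carried H3K27me3 over its whole promoter in both WT mES libraries and over 64.0% and 69.5% in the KO. In HSPCs the promoter was covered over 31.4% and 100% in WT and 100% in both KO libraries, so replicates of 1 group differed more than the groups. H2AK119ub was at 100% in all mES libraries and both KO HSPC libraries, and at 100% and 10.4% in WT HSPCs. Over the span H3K27me3 covered 46.4% and 56.8% in WT mES cells against 11.0% and 9.69% in WT HSPCs, and 31.7% and 29.3% against 7.67% and 8.21% in KO. H2AK119ub covered 19.0% and 13.8% of the span in WT HSPCs and 18.4% and 11.4% in KO HSPCs, below all 4 mES libraries of that mark.

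Mecom (chr3:29951296-30548008, minus strand) encodes EVI1 and its longer MDS1-EVI1 form, which keep stem cells quiescent. At the annotated gene start, where no coding transcript begins, coverage was 0% in 15 of the 16 mouse libraries and 27.6% for H3K27me3 in WT mES replicate 2. The first coding start, 38186 bases inside the gene, gave the opposite picture. H3K27me3 covered it wholly in all 8 libraries of that mark, and H2AK119ub covered 76.3% and 44.9% in the WT and 44.2% and 100% in the KO mES cells, 100% in both WT HSPC libraries and 31.3% and 100% in KO HSPCs. That start holds 97 CpGs in 2 kb and the gene start 28. Over the Mecom span coverage was at most 10.5% for H3K27me3 and 5.89% for H2AK119ub in any library.

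Among the myeloid factors, 2 promoters differed between the cell types for H3K27me3 by more than any other member's, those of Spi1 and Cebpe. Spi1 (chr2:91082390-91115756, plus strand) encodes PU.1, the ETS factor that directs myeloid and B cell fate. H3K27me3 covered its whole promoter in all 4 mES libraries, and in HSPCs 3.8% and 27.2% in the WT and 9.1% and 11.6% in the KO. H2AK119ub did not follow, covering 75.3% and 82.6% in the WT and 100% and 78.4% in the KO mES cells, and 100% and 82.2% in the WT and 100% and 81.0% in the KO HSPCs. The cell types did not overlap for H3K27me3 and overlapped for H2AK119ub.

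GENCODE places the principal Spi1 transcript 13.7 kb downstream of that start. At this second start H3K27me3 covered 62.5% and 100% in the WT and 48.6% and 18.3% in the KO mES cells, and 33.7% and 37.7% in the WT and 14.5% and 19.1% in the KO HSPCs. WT HSPCs lay below WT mES cells there too, whereas the KO libraries of the 2 cell types overlapped. Over the span H3K27me3 covered 46.2% and 53.1% in WT mES cells, 34.1% and 28.1% in KO mES cells, 16.8% and 24.8% in WT HSPCs and 14.4% and 4.89% in KO HSPCs. H2AK119ub over the span lay closer together, between 50.5% and 58.3% in mES cells and between 43.1% and 51.2% in HSPCs, with HSPCs below mES cells within each genotype.

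Cebpe (chr14:54710360-54712174, minus strand), which drives late neutrophil maturation, is only 1.815 kb long. Both marks covered its promoter almost wholly in mES cells (H3K27me3 100% and 100% in WT, 98.0% and 100% in KO, and H2AK119ub 100% in all 4). In HSPCs H3K27me3 covered 21.4% and 24.0% of the promoter in WT and 0% and 25.0% in KO, while H2AK119ub was at 100% and 98.6% in WT and 100% in both KO libraries. Over the gene itself H2AK119ub covered 100% in every mouse library. H3K27me3 covered 100% in every mES library, 0% and 33.9% in WT HSPCs and 5.84% and 0% in KO HSPCs.

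Cebpa (chr7:35119293-35121928, plus strand), the granulocyte and monocyte progenitor factor, is an intronless gene in the CpG-richest window of the 10, with 205 CpGs in 2 kb, more than 99.3% of gene starts. H3K27me3 covered its promoter wholly in 7 of the 8 libraries and over 71.0% in KO mES replicate 2. H2AK119ub covered 61.7% and 60.2% in the WT and 58.4% and 57.1% in the KO mES cells and 100% in all 4 HSPC libraries. Over the span it covered 68.7% and 58.4% in the WT and 68.4% and 67.5% in the KO mES cells, against 100% in all HSPC libraries, with no overlap. Cebpa was the only member with more span under H2AK119ub in HSPCs than in mES cells.

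Gfi1 (chr5:107716657-107726036, minus strand), a zinc finger repressor of the neutrophil branch, had both marks over its whole promoter in all 16 mouse libraries. The span differed: H3K27me3 covered 100% and 100% in the WT and 100% and 98.1% in the KO mES cells, against 49.4% and 67.2% in the WT and 51.2% and 56.9% in the KO HSPCs. H2AK119ub covered 88.2% and 92.0% in the WT and 88.2% and 92.1% in the KO mES cells, against 70.4% and 58.1% in the WT and 72.1% and 74.3% in the KO HSPCs. The HSPC libraries lay below the mES libraries for both marks, although the start itself showed no difference.

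Irf8 (chr8:120736358-120756694, plus strand), the monocyte and dendritic cell factor, showed the same form more strongly. H3K27me3 covered its promoter wholly in all 8 libraries of that mark, and its span over 92.0% and 100% in the WT and 94.3% and 88.2% in the KO mES cells, against 18.6% and 24.5% in the WT and 12.5% and 7.71% in the KO HSPCs. In the WT mES libraries the peak at the start was 15.8 and 32.6 kb wide, and in the WT HSPC libraries 4.5 and 7.05 kb. Both WT mES libraries and neither WT HSPC library covered 12.5 kb of the gene (61.5%), the longest run of 6.58 kb lying at the 3′ end, 13.8 to 20.3 kb from the start. In all 4 of these libraries a stretch of 1.45 kb from the start was covered. The second Irf8 start, 2281 bases inside the gene, held 19 CpGs in its 2-kb window, more than 20.3% of gene starts. That window lay within the peak at the first start in every mES library of both marks, so this CpG-poor start was wholly covered there. H2AK119ub over the span was 99.7% and 100% in the WT and 92.7% and 100% in the KO mES cells, and 71.5% and 87.1% in the WT and 70.6% and 72.6% in the KO HSPCs. At the promoter it was at 100% in the 4 mES libraries, at 61.4% and 100% in WT HSPCs and at 88.0% and 100% in KO HSPCs, so the promoter values of the cell types overlapped.

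**Figure D2:**
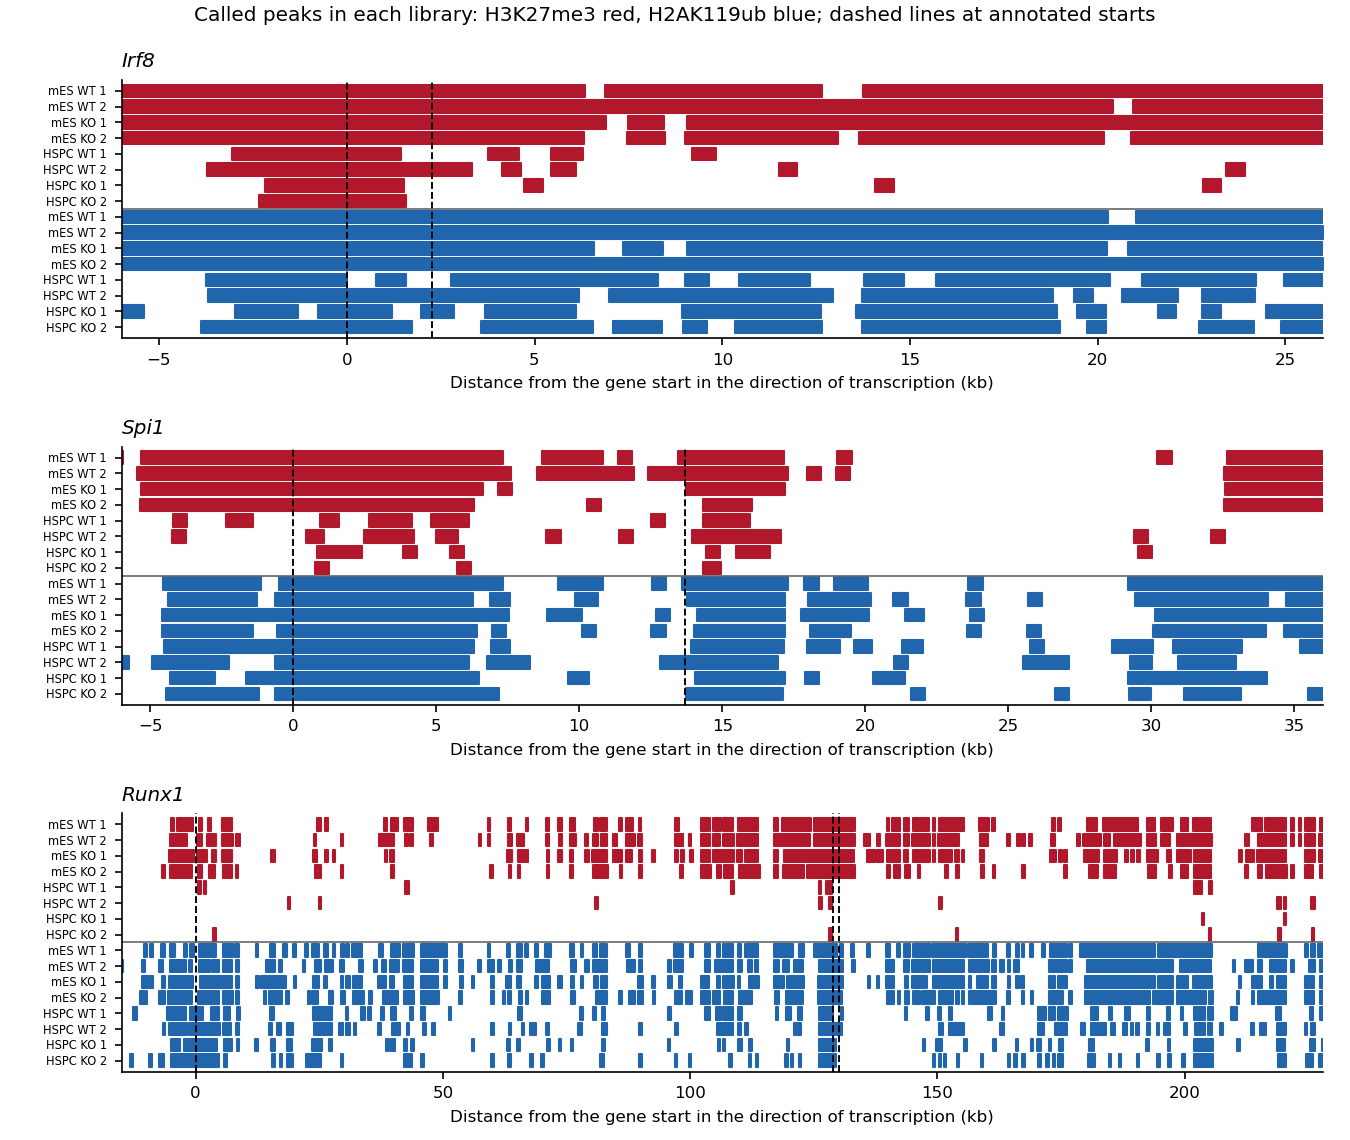
Peaks of the 16 mouse libraries along Irf8, Spi1 and Runx1, drawn by distance from the gene start in kb, with 1 row per library. At Irf8 the H3K27me3 peaks span most of the gene in mES cells and lie near the start in HSPCs, and at Runx1 HSPC libraries hold few H3K27me3 peaks.

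Taking the WT comparison as a whole, H3K27me3 span coverage was called lower in HSPCs than in mES cells for 9 of the 10 members, against 15.8% of all genes tested, and higher for none, against 13.9%. The differences ran from -12.0 percentage points at Cebpa to -83.0 at Cebpe, with -74.4 at Irf8 and -48.1 at Fli1. Without WT mES replicate 2 the Erg difference was -8.37 points instead of -12.9 and was no longer called. Mecom was not called. The mES lines and the primary HSPCs also differ in origin and culture, which cannot be told apart from cell type. The H3K27me3 lists covered 164.6 and 167.4 Mb in WT HSPCs and 188.9 and 232.5 Mb in WT mES cells. The part of that difference in these values was not tested. With 2 libraries against 2, no gene can go below an exact permutation p of 0.333 (two-sided, 6 assignments), and the Benjamini-Hochberg adjusted p over all genes with a peak was 0.446 for each of the 9.

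A gene can only be lower if it was covered to begin with. Of the 3608 genes whose promoters were wholly under H3K27me3 in both WT mES libraries, 39.1% were called lower over the span in WT HSPCs, and all 8 members among those genes were. At the promoter 28.6% of the same genes were called lower and 3 of the 8 members, a share near that of the covered genes. This subset was chosen after the values were seen and is given as a description. At the promoter, 4 members were called lower (Runx1 by -22.0 points, Spi1 by -84.5, Cebpe by -77.3 and Fli1 by -12.6), against 14.5% of all genes, and none higher, against 27.7% (exact permutation p = 0.333, adjusted p = 0.564). Without WT HSPC replicate 2 the Runx1 difference was -8.00 points and not called, and without WT HSPC replicate 1 it was -36.0.

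With both genotypes used and libraries permuted within genotype (36 arrangements), 8 members were called lower over the span for H3K27me3, against 13.3% of all genes, and none higher, against 12.8%. Each had the smallest exact permutation p that the design allows, 0.0556, and an adjusted p of 0.0942. Mecom also separated, by -5.06 points, and Cebpa did not. At the promoter Runx1 (-37.6), Spi1 (-87.1) and Cebpe (-81.9) were called lower, against 9.73% of all genes, and none higher, against 24.9% (exact permutation p = 0.0556, adjusted p = 0.124). These values are for the gene starts. At the principal Spi1 start the KO libraries of mES cells and HSPCs overlapped, so the Spi1 call does not extend to it.

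H2AK119ub was less uniform. The WT HSPC lists of this mark covered 171.2 and 138.8 Mb of the genome and the WT mES lists 259.9 and 248.5 Mb. The part of that difference in the values below was not tested. In WT cells 5 members were called lower over the span in HSPCs (Runx1 by -24.9 points, Gfi1 by -25.8, Irf8 by -20.5, Fli1 by -11.3 and Hlf by -32.0), against 18.9% of all genes, and Cebpa higher by 36.4, against 15.1% (exact permutation p = 0.333, adjusted p = 0.473). At the promoter Runx1 (65.5 points) and Cebpa (39.0) were called higher, against 22.8%, and Fli1 lower (-37.1), against 17.7% (exact permutation p = 0.333, adjusted p = 0.615). Of the 3608 genes wholly under H3K27me3 in WT mES cells, 50% were called lower for H2AK119ub over the span and 42.6% at the promoter, against 4 and 1 of the 8 members, so the members were at or below the share of those genes. Without WT mES replicate 1 the Fli1 span difference was -9.57 points and not called, without WT HSPC replicate 2 its promoter difference was -19.0, and without WT HSPC replicate 1 the Irf8 span difference was -12.7. This promoter count of 3 was 5 without either of the HSPC replicates. With both genotypes the promoter calls higher were again Runx1 (63.0) and Cebpa (40.7), against 18.5%, with none lower, against 9.94% (exact permutation p = 0.0556, adjusted p = 0.158). Over the span 6 were lower, Erg joining the 5 above, against 15.6%, and Cebpa higher by 34.3, against 12.8% (exact permutation p = 0.0556, adjusted p = 0.101).

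**Figure D3:**
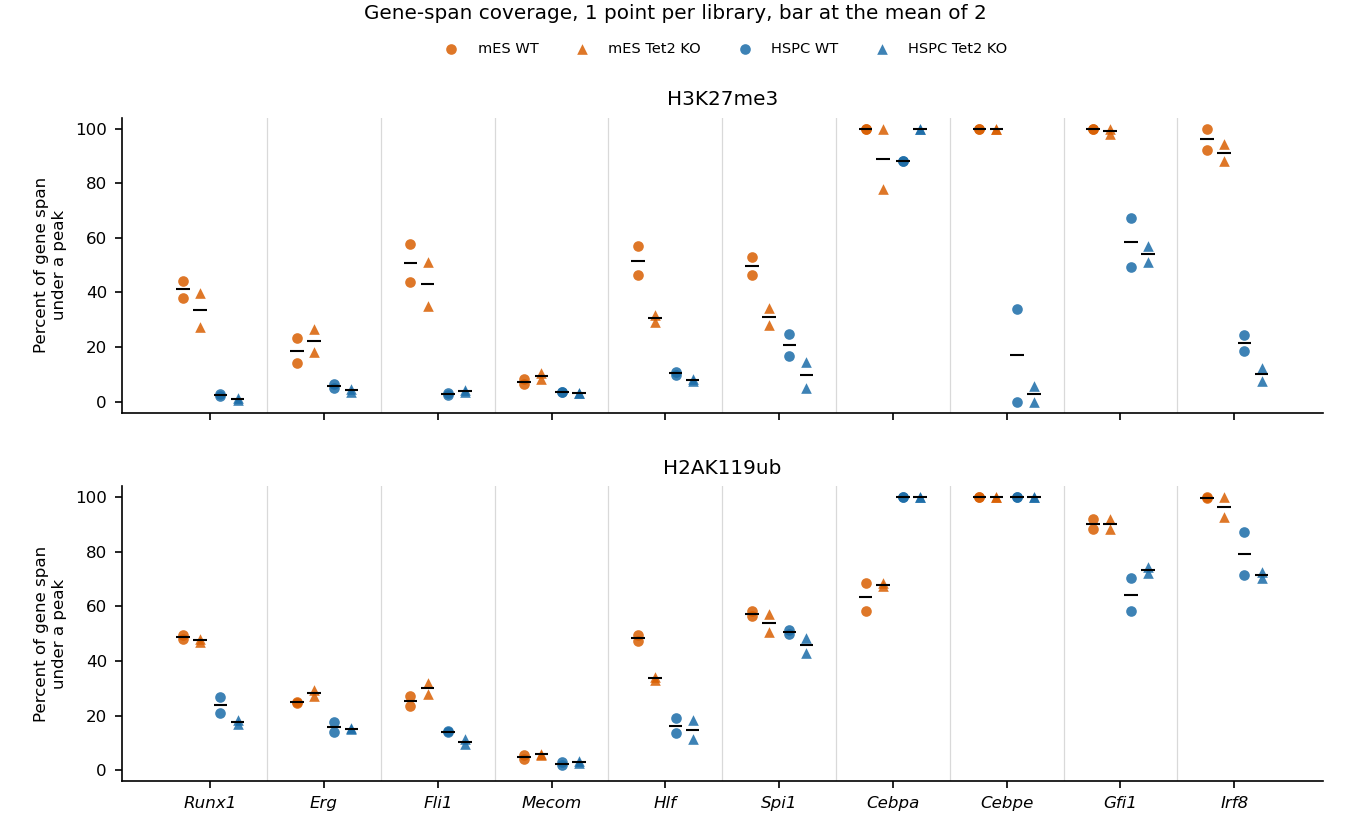
Span coverage (percent of the gene under a peak) of the 10 genes in the mouse libraries, by mark, cell type and genotype, with each point 1 library and a bar at the mean of 2. For H3K27me3 the HSPC points lie below the mES points for every gene but Cebpa, which is at 100% in both KO HSPC libraries.

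The marks were then compared within each cell type, again over both genotypes. In HSPCs the promoters of Runx1 (93.0 points), Spi1 (77.8) and Cebpe (82.0) had more H2AK119ub than H3K27me3, against 28.3% of all genes, and Erg had less (-51.6), against 10.3% (exact permutation p = 0.0556, adjusted p = 0.116). Over the span 5 members had more H2AK119ub (Runx1 19.2, Spi1 33.0, Cebpe 90.1, Irf8 59.6 and Erg 10.6), against 29.6%, and none less, against 10.2% (exact permutation p = 0.0556, adjusted p = 0.0797). In mES cells no promoter had more, against 29.1%, and Cebpa (-33.4) and Erg (-43.3) had less, against 6% (exact permutation p = 0.0556, adjusted p = 0.123). Over the span Runx1 (10.9) and Spi1 (15.3) had more, against 26.1%, and Cebpa (-28.8) and Fli1 (-19.2) less, against 4.46% (exact permutation p = 0.0556, adjusted p = 0.0917).

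Base by base, a smaller share of H2AK119ub was also under H3K27me3 in HSPCs at most members. These shares were not computed for all genes and describe the members only. They also fall where less of a gene lies under H3K27me3, as reported above (at Runx1 73.6 kb in WT mES cells and 1.05 kb in WT HSPCs), so they are not a separate result. In WT mES cells 63.6% of the Runx1 bases under H2AK119ub in both libraries were also under H3K27me3 in both, and in WT HSPCs 3.54%. At Irf8 the shares were 92.0% and 14.1%, at Fli1 88.2% and 11.2%, at Spi1 71.8% and 30.2%, at Erg 45.1% and 15.1% and at Hlf 70.9% and 27.9%. At Cebpe they were 100% and 0%, with the 1.815 kb of the gene under H2AK119ub in both cell types. Gfi1 (100% and 80.6%), Cebpa (100% and 87.9%) and Mecom (90.5% and 99.6%) kept most of this share. The reverse share, of H3K27me3 bases also under H2AK119ub, went both ways from WT mES cells to WT HSPCs. It was higher in HSPCs at Runx1 (74.6% and 100%), Spi1 (81.6% and 100%), Cebpa (54.7% and 100%), Fli1 (37.6% and 85.6%), Gfi1 (88.2% and 93.6%) and Mecom (42.9% and 47.4%). It was lower at Irf8 (99.7% and 69.9%), Erg (62.2% and 33.8%) and Hlf (59.3% and 20.8%).

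Across all genes mean promoter coverage was lowest at the CpG-poorest starts, as a description over starts that share libraries. Mean H2AK119ub promoter coverage in WT HSPCs was 8.80% for genes with 0 to 23 CpGs in 2 kb, 39.2% for 24 to 64, 61.5% for 65 to 100 and 69.2% for 101 to 308. For H3K27me3 in WT mES cells the means were 12.2%, 40.0%, 39.2% and 42.1%, so the classes above the lowest hardly differed. In WT HSPCs the H3K27me3 means were 9.27%, 35.6%, 50.5% and 59.7%. Spi1 with 27 CpGs (more than 28.0% of genes), Mecom at its gene start with 28, Runx1 at its distal start with 39 and Cebpe with 51 (more than 42.5%) were the members with the fewest, all in the class of 24 to 64 CpGs. In HSPCs these 4 promoters had the lowest mean H3K27me3 of the members. Erg, with 57 CpGs at its gene start, belongs to the same class and was at 100% in all 4 HSPC libraries of that mark. H2AK119ub in HSPCs lay between 81.0% and 100% at Spi1, Runx1 and Cebpe, above the mean of that class, and was 0% at the Mecom gene start.

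**Figure D4:**
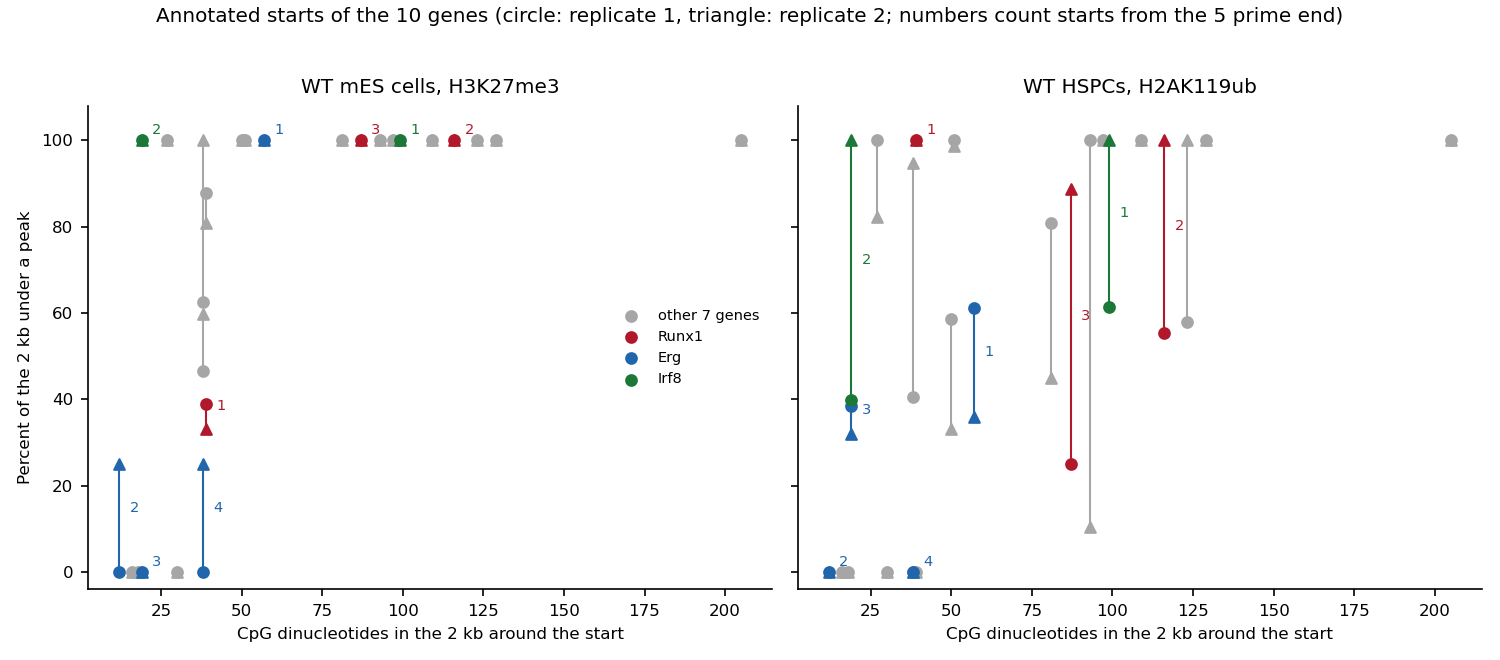
Promoter coverage (percent) against the number of CpGs in the 2-kb window for every annotated coding start of the members, for H3K27me3 in WT mES cells and H2AK119ub in WT HSPCs, with a circle for replicate 1 and a triangle for replicate 2 joined by a line. The starts of Runx1, Erg and Irf8 are coloured, and the second Erg start, with 12 CpGs, lies at 0% and 25.1% in mES cells and at 0% in HSPCs. The second Irf8 start, with 19 CpGs, is wholly covered by H3K27me3 in both mES libraries.

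The next question was whether loss of Tet2, an enzyme that oxidises methylcytosine, changed the marks over these genes, and few members were called. In mES cells no member promoter was called for H2AK119ub in either direction, against 7.43% of all genes called higher and 6.67% lower, whereas leaving out WT replicate 1 gave 2 and leaving out any other library 1. Over the span Hlf alone was called lower, from 49.4% and 47.3% in WT to 34.2% and 33.2% in KO (-14.7 points), against 3.66%, and none higher, against 3.34% (exact permutation p = 0.333, adjusted p = 0.881). The second Hlf start, 2.92 kb inside the gene, showed the same order, with 100% in both WT libraries and 52.3% and 53.7% in KO.

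For H3K27me3 in mES cells, the promoter of Hlf was called lower (-33.3 points), against 14.8% of all genes, and that of Runx1 higher (17.2), against 1.5% (exact permutation p = 0.333, adjusted p = 1). Over the span Hlf (-21.1) and Spi1 (-18.5) were called lower, against 7.67%, and none higher, against 1.59% (exact permutation p = 0.333, adjusted p = 0.762). Hlf span coverage was lower in both KO libraries for both marks. The H3K27me3 lists covered 188.9 and 232.5 Mb in WT and 214.5 and 149.4 Mb in KO, and the part of list extent in these values was not tested. The Runx1 promoter difference rested on KO replicate 1, at 64.9%, and without it was 5.45 points and not called, while without KO replicate 2 it was 28.9. Without WT replicate 1 the span count was 4 instead of 2, and without KO replicate 1 it was 5. The Runx1 call held only at the distal start, since the proximal one was at 100% in all 4 libraries.

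In HSPCs no member was called for H2AK119ub, at the promoter (against 16.1% of all genes higher and 4.04% lower) or over the span (5.28% and 3.21%). Leaving out any 1 library brought 1 to 3 promoters past the call, with 3 without WT replicate 1, and the span count was 2 without WT replicate 1 and 1 without KO replicate 1. For H3K27me3 no member promoter was called, against 5.68% higher and 7.3% lower. Over the span Spi1 (-11.2 points) and Irf8 (-11.5) were called lower, against 5.28%, and Cebpa higher (12.0), from 87.9% and 88.1% to 100% in both KO libraries, against 2.85% (exact permutation p = 0.333, adjusted p = 0.821). Without WT replicate 2 the differences were -7.19 points at Spi1 and -8.47 at Irf8, and without KO replicate 2 -6.45 and -9.09, none of them called. The span count of 3 was 5 without WT replicate 1 and 1 without WT replicate 2 or KO replicate 2, and leaving out any 1 library brought 1 or 2 promoters past the call. Genotype in these HSPC lists cannot be told apart from a possible difference in the sex of the animals.

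Over both cell types, Spi1 (-14.8 points) and Hlf (-11.7) had less H3K27me3 over the span in KO, against 2.31% of all genes, and no member more, against 0.216% (exact permutation p = 0.0556, adjusted p = 0.618). At the promoter no member was called, against 0.178% higher and 2.14% lower. Hlf stood on its mES values, since in HSPCs its difference was -2.39 points, while Spi1 was lower in both cell types. The HSPC part of this comparison has the same limit of unknown sex. Without WT replicate 2 of the mES libraries 1 member was called instead of 2.

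**Figure D5:**
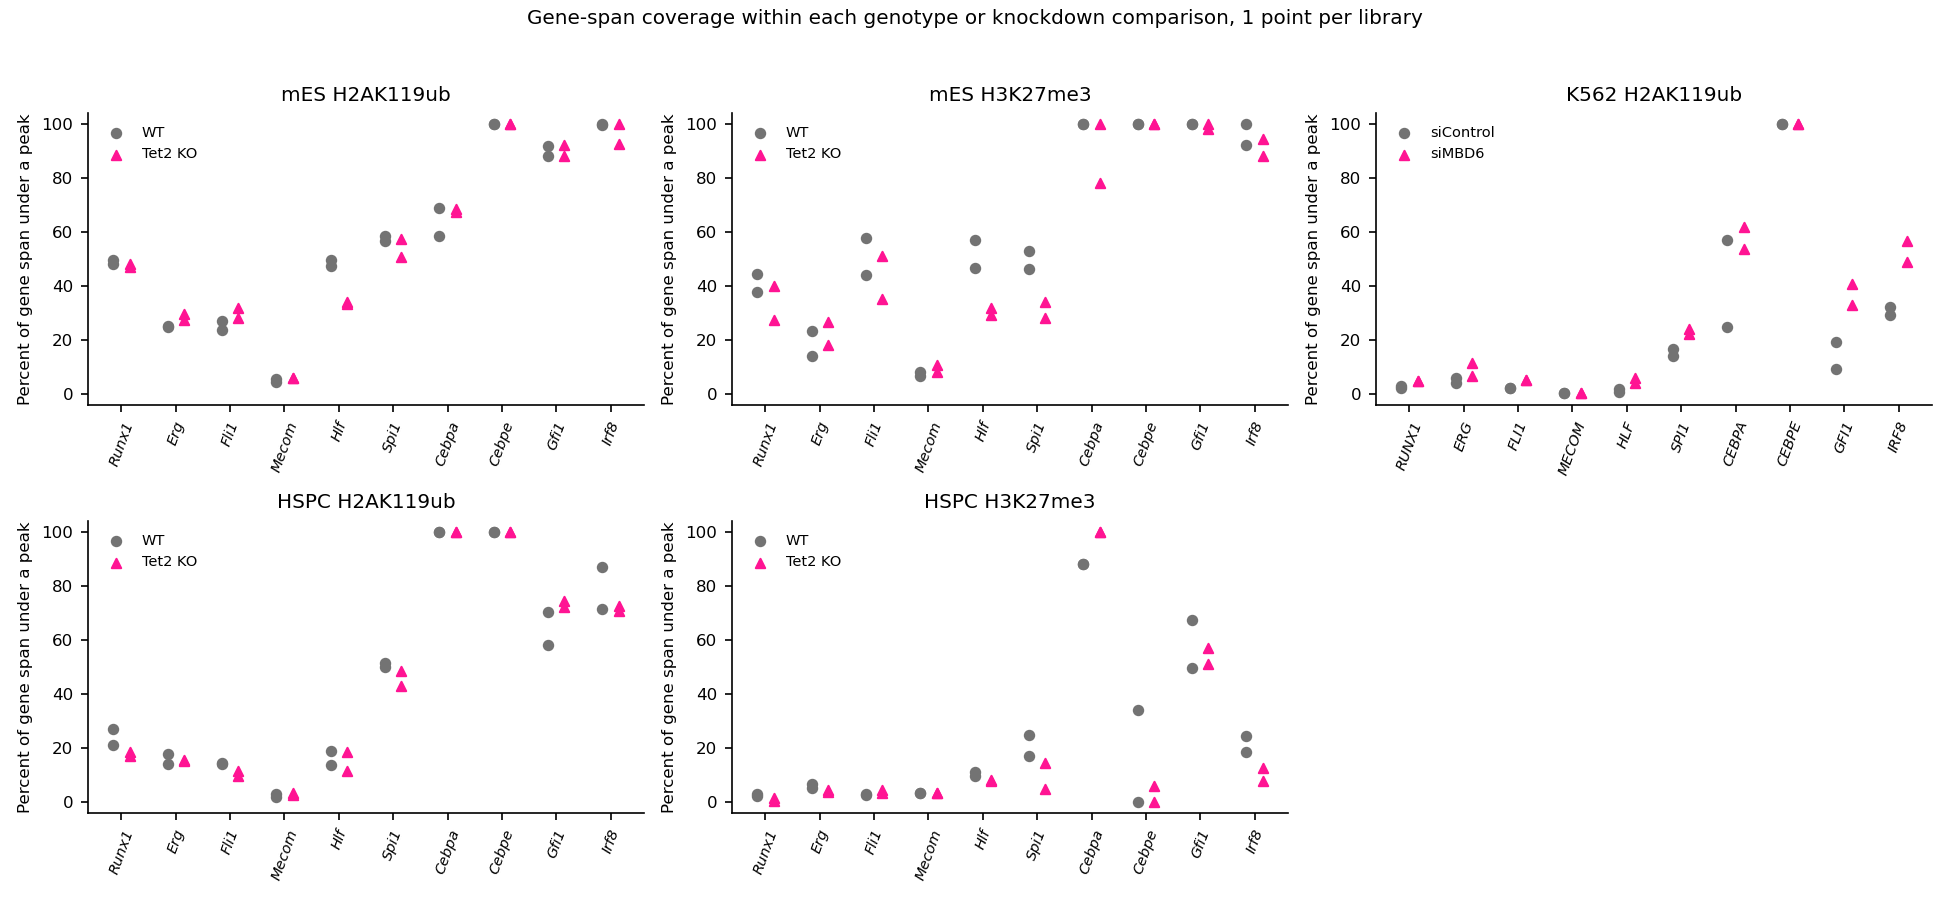
Span coverage (percent) of the 10 genes in WT and Tet2 KO libraries of mES cells and HSPCs, by mark, and in siControl and siMBD6 libraries of K562, with each point 1 library. Spi1 and Hlf lie lower in KO for H3K27me3, and GFI1 and IRF8 lie higher after siMBD6.

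The last question was asked of MBD6, a methyl-CpG-binding-domain protein, in K562, a human leukaemia line of erythroid character. Of the 10 promoters, 4 (SPI1, CEBPE, IRF8 and FLI1) had a peak in both siControl libraries, against 28.1% of all genes, and the same 4 in both siMBD6 libraries, against 36.7%. CEBPE was at 100% throughout, and RUNX1, ERG and MECOM were at 0% in all 4 libraries. SPI1 was covered over 72.1% and 82.6% after siControl and 71.2% and 68.8% after siMBD6, and the remaining promoters (GFI1, HLF and CEBPA) were at 0% in both siControl libraries.

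After siMBD6, 2 of the 10 promoters and 2 of the 10 spans were called higher, close to the share of all genes. The promoters of FLI1 (hg38 chr11:128686535-128813267, plus strand), 33.0% and 32.8% after siControl and 82.3% and 40.2% after siMBD6, and of IRF8 (chr16:85899116-85922606, plus strand), 25.1% in both siControl libraries and 33.1% and 42.0% in siMBD6, were called higher by 28.4 and 12.5 points. That compares with 11.8% of all genes called higher and 1.54% lower, and no member was lower (exact permutation p = 0.333, adjusted p = 1). Without siMBD6 replicate 1 the FLI1 difference was 7.40 points, and without siMBD6 replicate 2 it was 49.4 and that of IRF8 8.05, so each call rested on 1 library. The equal siControl values of IRF8 came from a single 501-bp peak in each library, at different places. It lay at -0.841 to -0.341 kb from the start in replicate 1 and at 0.274 to 0.774 kb in replicate 2. At the APPRIS start of FLI1, 6447 bases inside the gene, coverage was 0% in both siControl libraries and 14.8% and 0% after siMBD6. Over the span GFI1 (chr1:92473043-92486925, minus strand), 19.1% and 9.31% against 40.8% and 33.0%, and IRF8, 29.2% and 32.2% against 48.8% and 56.8%, were called higher by 22.7 and 22.1 points. This compares with 14.3% of all genes, and none was lower, against 0.225% (exact permutation p = 0.333, adjusted p = 0.604).

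The IRF8 difference was larger at inner starts. At the start 2936 bases inside the gene siControl was at 0% in both libraries and siMBD6 at 59.0% and 39.6%, and at the one 14.7 kb inside siControl was at 82.0% and 68.4% and siMBD6 at 100% and 99.9%. Over the span, smaller differences of the same sign were seen at RUNX1, ERG, FLI1, MECOM, HLF and SPI1, none reaching 10 points. RUNX1 was at 2.33% and 2.86% after siControl and 4.63% and 4.60% after siMBD6. The share of all genes with such a smaller difference is not given, so these values describe the members only. Among all genes, span calls were also mostly higher (14.3%, against 0.225% lower). CEBPE was at 100% in all 4 libraries, and the CEBPA groups overlapped (24.9% and 57.0% against 61.7% and 53.6%). The siMBD6 lists also covered more of the genome than the siControl lists (178 and 190 Mb against 132 Mb in both), and the part of that difference in these values was not tested.

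Other regulators and relatives of these factors, 33 in all with 32 measured, were counted in the same way. Between WT HSPCs and WT mES cells, H3K27me3 promoter coverage was called lower for 11 (34.4% of the list, against 14.5% of all genes) and higher for 7 (21.9%, against 27.7%), and span coverage for 14 (43.8%, against 15.8%) and 3 (9.38%, against 13.9%). Myb, a progenitor factor, was at 100% in both mES libraries and 0% in both HSPC libraries, and Irf2, an interferon regulatory factor, at 100% in both and at 0% and 25.1%. Klf4, which acts in pluripotency and in monocytes, went the other way, from 10.6% and 12.2% to 100% in both. For H2AK119ub 6 promoters were higher (18.8%, against 22.8%) and 0 lower (against 17.7%), Klf4 (53.1 points), Egr1 (42.3) and Elf1 (36.8) differing most. Over the span 3 were higher (9.38%, against 15.1%) and 9 lower (28.1%, against 18.9%).

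Between genotypes, 5 promoters of the list were higher in KO for H2AK119ub in mES cells (15.6%, against 7.43% of all genes) and 3 lower (9.38%, against 6.67%). Prdm16 was at 32.4% and 73.0% in WT and 100% in both KO libraries, with Myb (39.0 points) and Meis1 (35.1) next. For H3K27me3 in mES cells 1 was higher (3.12%, against 1.5%) and 7 lower (21.9%, against 14.8%), Ets2 (-62.0), Etv2 (-53.7) and Irf1 (-29.2) differing most. In HSPCs 1 was higher and 1 lower for each mark, 3.12% of the list each time. These were Meis1 (12.7) and Egr1 (-45.0) for H2AK119ub, against 16.1% and 4.04% of all genes, and Irf1 (19.8) and Gfi1b (-42.7) for H3K27me3, against 5.68% and 7.3%. Over the span in mES cells 1 was higher for H2AK119ub (3.12%, against 3.34%) and 0 lower (against 3.66%), and for H3K27me3 0 were higher (against 1.59%) and 4 lower (12.5%, against 7.67%). In HSPCs 3 spans were higher for H2AK119ub (9.38%, against 5.28%) and 0 lower (against 3.21%), and for H3K27me3 0 were higher (against 2.85%) and 2 lower (6.25%, against 5.28%). In K562 5 promoters (15.6%, against 11.8%) and 6 spans (18.8%, against 14.3%) were higher after siMBD6 and none lower (against 1.54% and 0.225%), led by SPIB (61.5), EGR2 (40.8) and TEF (30.3).

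Some genes had promoter coverage close to that of a member in all 16 mouse libraries, by the mean absolute difference in percentage points. Nearest to Irf8 were Dlx3 (0.597), Samd5 (0.781) and Dlx4 (0.806), and nearest to Cebpe were Il17rc (1.92), Tmem63a (2.4) and Cxcr4 (2.63). Spi1 was followed by Adgrg1 (7.94), Lyn (8.01) and Il17rc (8.11), and Fli1 by Slc2a10 (4.81), Sftpc (4.97) and Alox5 (5.03). Near to Erg were Ccr9 (3.17) and Sobp (3.38), and to Cebpa Prss16 (3.11), Ank1 (3.35) and Bicdl2 (4.00). Hlf had Tspan9 (7.61), Casz1 (8.49) and Calcb (8.68), and Runx1 no gene closer than Acsf3 (14.0), Csf2rb (14.7) and Edc4 (14.9). The wholly covered Gfi1 promoter was tied with 336 genes at 0, and the nearly bare Mecom gene start with 19 at 0.163.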

How the data were processed

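A peak list from each of the 20 CUT&Tag libraries was used in the form the authors deposited it, and the labels gave groups and replicate numbers. According to the methods and labels, reads were trimmed (Trimmomatic 0.39) and aligned to mm10 or hg38 plus a Drosophila spike-in genome (Bowtie2 2.4.1), Picard took out duplicates, and MACS2 called broad peaks. The labels also name HOMER 4.9, in a role not given in the sources used here. The deposited files hold positions and no score, count or signal, so spike-in scaling does not reach them.

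Coverage was computed with numpy 2.4.6 and pandas 2.3.3 under Python 3.11.15, checked against bedtools 2.31.1 and tested on simulated data. Figures were drawn with matplotlib 3.10.9. Gene starts and spans came from GENCODE M21 (mouse) and 44 (human), and promoters reached 1000 bp to each side. Calls needed separated groups and means at least 10 percentage points apart. Two-sided exact permutation tests were adjusted by Benjamini-Hochberg over all autosomal protein-coding genes with a peak in at least 1 library compared. All 10 members were named. Of the related list at most 3 called genes per comparison were named, those differing most at the promoter, and for each member the 3 nearest genes, of which 1 is not reported here. Members and lists were chosen with earlier results of these data known. CpGs were counted in the reference genome. Alternatives were other promoter windows, the APPRIS principal start, peaks of at least 1 kb, peaks within 1 kb joined, lists of equal peak number, a 20-point call, a replicate block and each replicate left out in turn. The crossed pairing was added after the data were seen.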

Additional observations from a re-analysis of the deposited data

Results flagged for a closer look

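Span coverage of Fli1 by H2AK119ub was separated between WT and Tet2 KO libraries in opposite directions in mES cells and HSPCs. In mES cells both KO libraries (31.9% and 28.0%) lay above both WT libraries (27.1% and 23.7%), a difference of 4.56 percentage points. In HSPCs both KO libraries (9.53% and 11.3%) lay below both WT libraries (14.3% and 13.9%), a difference of -3.69 points. Subtracting the mES difference from the HSPC one gave -8.25 points. The gene was picked because its libraries separated in opposite directions. A test on the same values could not judge this difference, so none is reported. Neither single difference reached the 10 points of a call.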

How the results depend on the processing

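No result changed direction under any alternative. The counts below are of members only, and the shares of all genes called under the same settings are not given. A changed count is therefore not a result about the members. At the promoter, a window of 2 kb on each side gave 3 called members instead of 0 for mES H2AK119ub, 3 instead of 0 for HSPC H2AK119ub, 1 instead of 0 for HSPC H3K27me3 and 4 instead of 2 in K562. Over both genotypes it gave 5 instead of 3 for the cell types and H3K27me3, and 1 instead of 0 for Tet2 and H2AK119ub. A window of 500 bp gave 1 instead of 2 for mES H3K27me3 and 2 instead of 4 for WT HSPC against WT mES H3K27me3. With APPRIS starts HSPC H3K27me3 had 1 instead of 0, K562 1 instead of 2, pooled Tet2 H3K27me3 1 instead of 0 and the marks in mES cells 1 instead of 2. Peaks of at least 1 kb gave 1 instead of 0 (mES H2AK119ub), 1 instead of 2 (mES H3K27me3) and 0 instead of 2 (K562). Joined peaks gave 1 instead of 2 (mES H3K27me3), 1 instead of 3 (WT HSPC against mES H2AK119ub), 1 instead of 2 (the same over both genotypes) and 0 instead of 2 (marks in mES cells). A 20-point call gave 1 instead of 2 for mES H3K27me3 and 1 instead of 2 in K562.

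Over the span, a 20-point call gave 0 instead of 1 (mES H2AK119ub), 1 instead of 2 (mES H3K27me3), 0 instead of 3 (HSPC H3K27me3), 0 instead of 2 (pooled Tet2 H3K27me3), 1 instead of 4 (marks in mES cells) and 3 instead of 5 (marks in HSPCs). Peaks of at least 1 kb gave 1 instead of 0 for HSPC H2AK119ub, 1 instead of 3 for HSPC H3K27me3, 1 instead of 2 for pooled Tet2 H3K27me3 and 2 instead of 4 for marks in mES cells, and joined peaks 1 instead of 0 for HSPC H2AK119ub. The cause was not tested.

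Leaving out each replicate gave promoter counts of 1 to 2 (mES H2AK119ub), 2 to 3 (mES H3K27me3), 1 to 3 (HSPC H2AK119ub), 1 to 2 (HSPC H3K27me3), 2 to 3 (K562), 3 to 5 (WT cell types, H2AK119ub) and 4 to 5 (H3K27me3). Span counts were 2 to 5 (mES H3K27me3), 0 to 2 (HSPC H2AK119ub), 1 to 5 (HSPC H3K27me3), 5 to 7 (WT cell types, H2AK119ub), 8 to 9 (H3K27me3) and 1 to 3 (pooled Tet2 H3K27me3). Same-numbered replicates did not deviate together (r across genes from -0.134 to 0.0314), so the numbers were not taken to pair the libraries. The replicate block gave 1 called promoter instead of 0 for HSPC H2AK119ub and changed no other count by over 1.5 times. With the numbers crossed for mES H3K27me3 the block called 2 promoters and 2 spans, as without it. Lists of equal peak number were not run over both genotypes or marks. Unknown depth limits every value.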
